A study of Mus musculus with 2 samples.

Results

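Alternative internal promoter regions are stretches of open chromatin that lie at a protein-coding transcript start far inside a gene. Open chromatin was taken from the authors' list of reproducible ATAC-seq peaks (thresholded on the irreproducible discovery rate, IDR), in which overlapping or touching peaks were merged and the peak with the greatest fold enrichment gave the summit. A region was a member if its summit lay within 1000 bp of the start of a protein-coding transcript, that start lay over 5 kb downstream of the 5′ end of its gene record, and the summit lay over 1000 bp from the 5′ end of every protein-coding gene record. Membership rested on the position of the summit, which the fold of the peaks chose within a merged region, and the rule found 992 of 29415 regions (3.37%, 95% exact binomial interval 3.17 to 3.59%) in 837 genes. Of these genes, 710 had 1 member, 107 had 2 and 20 had 3 or more.

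ATAC-seq marks open DNA by letting a transposase cut it and tag the ends. It was applied to regulatory T cells described as having met inflammation, from 1 male mouse aged 6 months. The mouse was a cross of Foxp3CreERT2, a tamoxifen-inducible Cre recombinase driven from the Foxp3 gene, with Rosa26YFP, a fluorescent reporter that Cre switches on. The labels give bone marrow hematopoietic cells as the origin of these primary cells, and state neither the kind of inflammation nor the way the cells were isolated. Both samples were technical replicates of 1 biological replicate in 1 group, and the deposited lists pool them, so each region has 1 value, no spread between libraries or mice could be given and no test was possible.

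Many mammalian genes have more than 1 promoter. The choice among them can change where a transcript begins, and, when the first coding exon differs, the amino end of the protein. A gene record in the annotation begins where its farthest transcript begins, however rarely that transcript is made, so a start far inside the record can be the main promoter of the gene. The annotation also holds transcripts whose true 5′ end was never determined. Promoters in mammals are often CpG islands, which are stretches of DNA that have kept their CG pairs, and these tend to be open in many cell types. ATAC-seq has no strand and shows accessible DNA, not transcription.

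The 150 bases before an internal start are given for 10 members in GRCm38 (mm10), 5′ to 3′ on the strand of the gene, to show how different these promoters are. Capitals mark matches, on either strand, to GGGCGG (bound by SP and KLF factors), CCAAT (NFY), CCGGAAG (ETS), TGACGT (CREB and ATF), TGANTCA (AP-1), GCGCANGCG (NRF1), AAGATGG (YY1), TGTGGT (RUNX) and CTTTGAT (TCF1 and LEF1). The first sequence lies before the internal start of Ehbp1, an endocytosis protein (chr11:22286796-22286945, minus strand), and the next lies before the 5′ end of the same gene record (chr11:22342293-22342442), where no region was found. The internal one holds 22 CG pairs and 81.3% G and C, the 5′ end 1 CG pair and 50.7%.
Ehbp1, internal start: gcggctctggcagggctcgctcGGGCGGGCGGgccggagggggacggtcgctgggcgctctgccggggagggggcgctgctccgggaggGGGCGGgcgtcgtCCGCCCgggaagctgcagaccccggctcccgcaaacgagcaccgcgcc
Ehbp1, 5′ end of the record: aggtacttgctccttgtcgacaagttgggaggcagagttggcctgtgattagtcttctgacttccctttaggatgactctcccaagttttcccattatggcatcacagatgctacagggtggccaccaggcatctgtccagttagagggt
The next 4 come from genes that also had no region at the 5′ end of the record and were among the highest members. They are Scp2, a sterol carrier protein (chr4:108071420-108071569, minus strand, 15 CG pairs), Nfyc, a subunit of the CCAAT-binding factor NFY (chr4:120815713-120815862, minus strand, 2 CG pairs), Gnl2, a nucleolar GTPase (chr4:125029842-125029991, plus strand, 12 CG pairs), and Mctp1, a calcium-binding membrane protein (chr13:76579524-76579673, plus strand, 2 CG pairs).
Scp2: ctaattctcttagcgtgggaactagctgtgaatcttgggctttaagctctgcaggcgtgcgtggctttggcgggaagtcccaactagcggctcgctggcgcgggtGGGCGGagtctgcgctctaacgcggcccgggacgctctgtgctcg
Nfyc: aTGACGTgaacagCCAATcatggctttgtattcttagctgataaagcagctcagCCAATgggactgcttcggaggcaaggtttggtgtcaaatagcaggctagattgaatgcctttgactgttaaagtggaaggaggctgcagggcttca
Gnl2: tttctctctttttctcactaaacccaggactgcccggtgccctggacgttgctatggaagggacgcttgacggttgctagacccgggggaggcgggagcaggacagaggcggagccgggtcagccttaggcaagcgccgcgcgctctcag
Mctp1: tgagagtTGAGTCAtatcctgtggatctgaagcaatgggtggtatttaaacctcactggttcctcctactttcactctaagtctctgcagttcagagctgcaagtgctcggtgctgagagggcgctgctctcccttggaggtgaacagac
The last 5 come from transcription factors of T cells. They are Nr4a1, induced by antigen receptor signals (chr15:101266696-101266845, plus strand, 21 CG pairs), Hif1a, the oxygen-regulated factor HIF-1α (chr12:73907754-73907903, plus strand, 13 CG pairs), Prdm1, which encodes Blimp-1 (chr10:44458749-44458898, minus strand, 13 CG pairs), Rora, a nuclear receptor (chr9:69289532-69289681, plus strand, 4 CG pairs), and Elf1, an ETS factor (chr14:79515524-79515673, plus strand, 2 CG pairs).
Nr4a1: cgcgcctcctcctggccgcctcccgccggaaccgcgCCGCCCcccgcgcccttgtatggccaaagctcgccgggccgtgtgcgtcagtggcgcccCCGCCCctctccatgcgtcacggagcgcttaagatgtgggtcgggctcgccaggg
Hif1a: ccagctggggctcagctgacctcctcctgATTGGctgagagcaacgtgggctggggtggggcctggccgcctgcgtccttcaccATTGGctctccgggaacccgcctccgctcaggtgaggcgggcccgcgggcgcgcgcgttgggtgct
Prdm1: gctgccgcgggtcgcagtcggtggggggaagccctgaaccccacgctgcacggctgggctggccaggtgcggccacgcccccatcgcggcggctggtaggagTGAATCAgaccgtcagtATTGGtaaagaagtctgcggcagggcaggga
Rora: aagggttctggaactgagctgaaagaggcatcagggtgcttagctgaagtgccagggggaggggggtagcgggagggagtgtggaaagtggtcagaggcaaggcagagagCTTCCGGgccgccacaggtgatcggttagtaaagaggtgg
Elf1: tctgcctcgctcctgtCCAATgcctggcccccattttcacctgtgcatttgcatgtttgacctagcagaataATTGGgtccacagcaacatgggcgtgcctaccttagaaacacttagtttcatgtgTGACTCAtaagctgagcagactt
The promoter of Nfyc held 2 matches to CCAAT, the motif of the factor of which its product is a part. The promoter of Ehbp1 held 4 matches to GGGCGG and that of Nr4a1 held 2. Mctp1, Prdm1 and Elf1 each held 1 match to TGANTCA. Gnl2 held no match to any of the 9 motifs, which says only that these letters are not in its window. A match describes the letters in the window and does not show that a factor was bound.

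Few internal starts were open. Of 10309 protein-coding starts over 5 kb inside their gene and over 2000 bp from every gene 5′ end, 1803 (17.5%, 16.8 to 18.2%) had a summit within 1000 bp. Starts of 1 gene can share a summit and are not independent, so intervals over starts, here and below, may be too narrow. Counted by gene, 837 of 5086 genes with such a start (16.5%, 15.4 to 17.5%) were open at 1 or more of them. At the 5′ ends of gene records the share was 10007 of 21938, or 45.6% (45 to 46.3%). The open share of internal starts was 17.8% (16.7 to 18.9%) in genes with an open 5′ end and 17.3% (16.3 to 18.3%) in genes without one, and these intervals overlap.

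The quality of the annotated start went with a large difference in the open share. Starts with a transcript whose 5′ end is complete were open in 1697 of 7152 cases (23.7%, 22.7 to 24.7%), and starts at which each transcript is annotated as incomplete in 106 of 3157 (3.36%, 2.76 to 4.05%). For starts of a principal transcript, the one the APPRIS annotation ranks as the main product of the gene, the share was 25.5% (23.8 to 27.3%), against 14.9% (14.1 to 15.7%) for the others. Starts of transcripts with the best support level were open in 26.2%, against 12.9% for the rest.

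Summits gathered in the 200 bp just before complete starts. There were 13.5 summits per 100 complete principal starts in that bin, 25.1 times the mean of 0.536 per bin at 5 to 10 kb on either side. At complete starts that were not principal the count was 11.6, or 20.4 times its flank of 0.567. At incomplete starts it was 0.919, or 1.5 times its flank of 0.613, with 0.285 and 0.317 in the bins on either side. The upstream flank can reach the 5′ end of the gene record, so these flank means are not a neutral background.

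**Figure D1:**
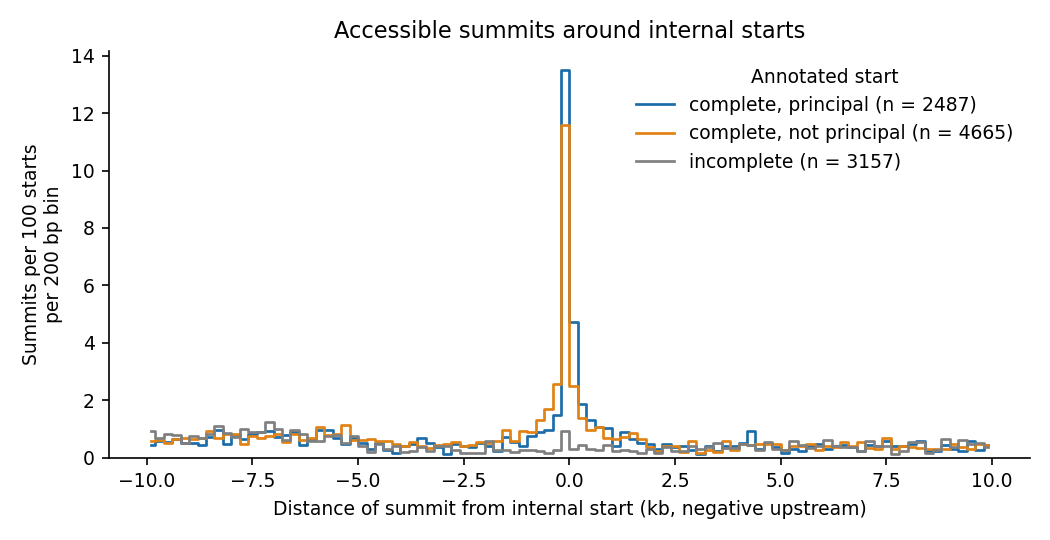
Summits per 100 internal starts (vertical axis) in bins of 200 bp by distance from the start in kb (horizontal axis), for complete principal, complete not principal and incomplete starts. Both complete sets have a single sharp peak just upstream of the start, at 13.5 and 11.6. The incomplete set has 0.919 in the bin before the start, with neighbouring bins at 0.285 and 0.317. Its highest bin, at 1.24, lies −7200 to −7000 bp from the start.

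Within the members, 910 of 992 (91.7%, 89.8 to 93.4%) had a complete start as their nearest, and 82 had an incomplete one. The median summit lay 33 bp upstream of the start (95% interval from −40 to −26 bp), and at gene 5′ ends 24 bp upstream of the end of the record (−26 to −23 bp). A summit within 100 bp of the start was found for 55.2% (52.1 to 58.4%) of members, a space that makes up 10% of the window. The share was 58.6% (55.3 to 61.8%) at complete starts and 18.3% (10.6 to 28.4%) at incomplete ones. Members near their start were also higher. The median fold enrichment was 14.8 (14.3 to 15.6) within 100 bp, 13.6 (12.8 to 14.7) at 100 to 250 bp, 9.97 (8.96 to 11.4) at 250 to 500 bp and 9.61 (8.74 to 10.9) at 500 to 1000 bp.

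Open internal starts were rich in CpG. The ratio of observed to expected CG pairs in the 500 bp on either side had a median of 0.628 (0.611 to 0.645) at the 1803 open starts and 0.252 (0.248 to 0.255) at the 8506 others. The open share was 4.09% (3.41 to 4.86%) below a ratio of 0.2, 25% (22.7 to 27.5%) at 0.4 to 0.6, 61.8% (58.5 to 65%) at 0.6 to 0.8 and 79.3% (66.6 to 88.8%) at 1.0 and over. Gene 5′ ends in the same bins were open in 4.21%, 45.7%, 73% and 85.1%. Between ratios of 0.2 and 1.0 the interval for internal starts lay below that for 5′ ends in each of the 4 bins, and in the lowest and the highest bin the intervals overlapped.

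**Figure D2:**
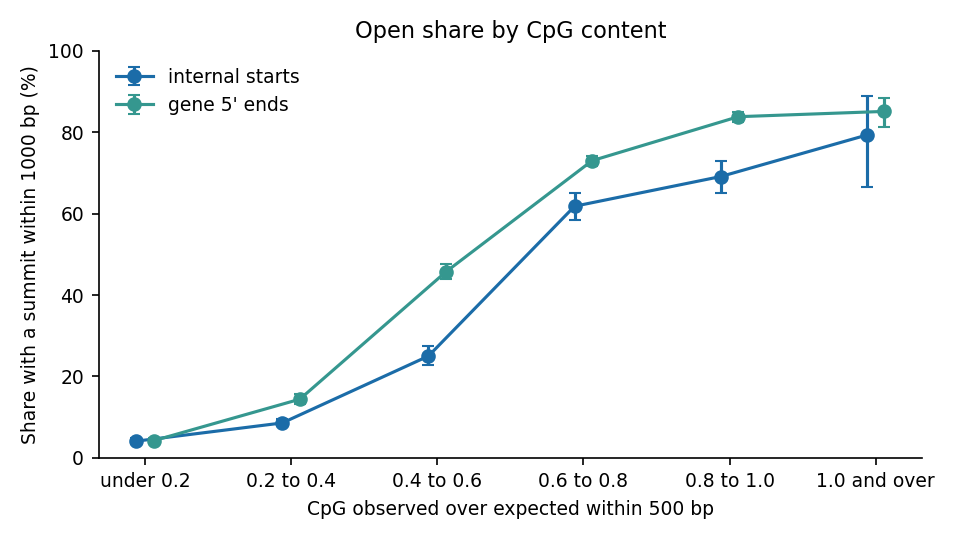
Share of annotated starts with a summit within 1000 bp (vertical axis, %) by CpG ratio (horizontal axis), for internal starts and gene 5′ ends, with 95% exact binomial intervals. Both shares climb with CpG content, from about 4% to 79.3% and 85.1%, and internal starts lie below in the middle bins.

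Members stood between regions at gene 5′ ends and regions in introns in height, width and sequence. Their median fold enrichment over background, as given by the authors' peak caller, was 13.3 (12.8 to 13.8, interquartile range 9.34 to 17.2). It was 15.9 (15.7 to 16.1) for 9294 regions at gene 5′ ends and 11.4 (11.3 to 11.6) for 8791 intronic regions away from any protein-coding start. Median widths were 791, 930.0 and 534 bp in the same order. More than 1 summit was called in 69.6%, 81.5% and 39.3%, and the median −log10 p was 123, 189 and 67.3. A CpG ratio of at least 0.6 around the summit was found in 44.9% (41.7 to 48%) of members, 77.4% (76.5 to 78.2%) of regions at gene 5′ ends and 1.88% (1.6 to 2.18%) of intronic regions. The order holds for these classes only. The 578 regions at other coding starts, not over 5 kb inside, had a lower median fold of 10.1 (9.27 to 11.1). Of these, 53.1% (49 to 57.2%) had such a CpG ratio. Intergenic regions had a median fold of 12.6 (12.5 to 12.8), near that of members.

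The same order of members and 5′ ends was seen at like CpG content. With a ratio of at least 0.6 the median fold was 14.1 (13.4 to 14.8) for members and 16.2 (16 to 16.4) for 5′ ends. Below 0.6 it was 12.5 (11.8 to 13.2) for members, 14.5 (14.1 to 14.9) for 5′ ends and 11.5 (11.3 to 11.6) in introns. Members with a principal start were somewhat higher, with a median of 13.9 (13.1 to 14.6), than those without, with 12.6 (11.8 to 13.3). Their starts had CpG ratios of 0.678 (0.643 to 0.699) and 0.378 (0.342 to 0.404).

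**Figure D3:**
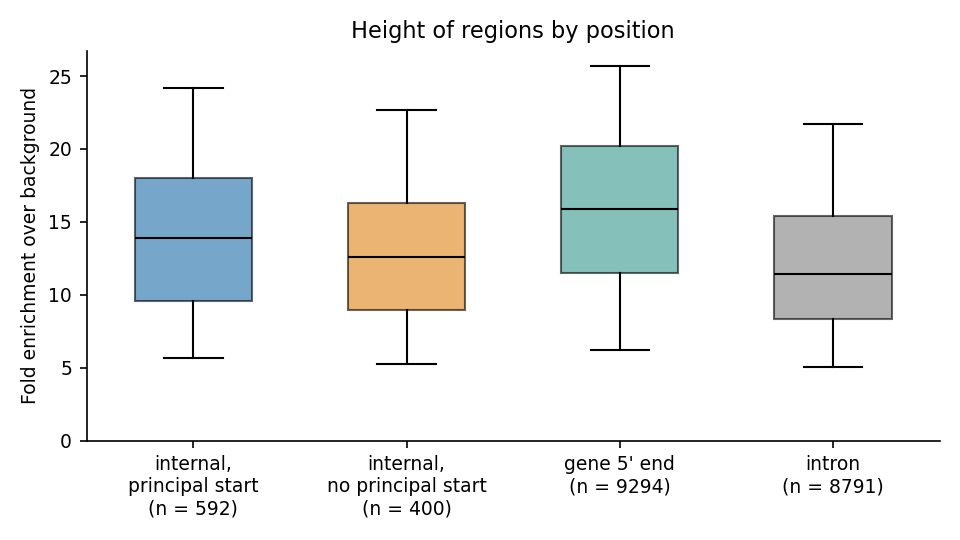
Fold enrichment over background (vertical axis) of members with and without a principal start, of regions at gene 5′ ends and of intronic regions; boxes show the quartiles and median, whiskers the 5th and 95th percentile. The medians are 13.9, 12.6, 15.9 and 11.4, and the boxes overlap widely.

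The motifs followed the same middle position. Within 100 bp of the summit GGGCGG was found in 45.6% (42.4 to 48.7%) of members, 61.7% of regions at gene 5′ ends and 8.9% of intronic regions. CCGGAAG was found in 11.4%, 19.6% and 3.33%, GCGCANGCG in 8.06%, 11.9% and 0.41%, and CCAAT in 24.7%, 35.5% and 19.6%. The RUNX motif and the pattern TGANTCA had the opposite order. TGTGGT was found in 14.8% of members, 8.24% of 5′ ends and 29.3% of intronic regions, and TGANTCA in 6.65%, 3.2% and 13.8%. The motifs of SP, ETS and NRF1 factors themselves hold CG pairs. Among members with a CpG ratio of at least 0.6, GGGCGG was found in 70.8% (66.3 to 75%) and GCGCANGCG in 16% (12.7 to 19.7%), against 67.8% and 14.1% of 5′ ends in that range. CCGGAAG was found in 16.2% (12.9 to 19.9%) of these members against 21.8% (20.9 to 22.8%) of 5′ ends, and CCAAT in 25.4% (21.4 to 29.7%) against 36.2% (35.1 to 37.3%). In that range TGTGGT was found in 5.62% (3.67 to 8.18%) of members and 6.38% (5.83 to 6.97%) of 5′ ends. TGANTCA was found in 3.15% (1.73 to 5.22%) and 2.34% (2 to 2.71%), so for both motifs the intervals overlap. Members below 0.6 held GGGCGG in 25%, TGTGGT in 22.3% and TGANTCA in 9.51%, against 40.7%, 14.6% and 6.14% of 5′ ends. TATAAA lay 40 to 20 bp before the start, on the strand of the transcript, in 0.635% (0.233 to 1.38%) of 945 member starts, 0.61% of open gene 5′ ends and 0.764% of internal starts not open.

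By annotation the members are alternative starts, and many lay in genes with no region at the 5′ end. By gene, the share was close to that of all genes with an internal start. A principal transcript began within 1000 bp of the summit at 592 of 992 members (59.7%, 56.5 to 62.7%), not always at the nearest start. Of all 10309 internal starts counted above, 2496 were themselves starts of a principal transcript, which is a narrower count. There were 528 members (53.2%, 50.1 to 56.4%) in a gene with no region within 1000 bp of the 5′ end of its record. Of those 528, 343 (65%, 60.7 to 69%) held a principal start, against 249 of the other 464 (53.7%, 49 to 58.3%). Counted by gene, 446 of 837 had no region at the 5′ end, and 391 (46.7%, 43.3 to 50.2%) had one. Over all 5086 genes with an internal start, 48.4% (47.1 to 49.8%) had one, and these intervals overlap. The majority of member genes without one turned with the processing. The share of member genes with one was 58.8% in the authors' larger pseudoreplicated list and 54.5% with a window of 2000 bp. In the 446 genes the median CpG ratio was 0.636 (0.61 to 0.68) at the internal start and 0.286 (0.267 to 0.319) at the 5′ end, and 82 of the 446 5′ ends (18.4%) had a region in the pseudoreplicated list. A protein-coding transcript began at 367 of the 446 (82.3%, 78.4 to 85.7%), so not each of them is a coding start. At the 391 open 5′ ends one began at 345 (88.2%, 84.6 to 91.3%). Transcripts of the best support level were found at 49.8% (45 to 54.5%) of the closed and 63.9% (59 to 68.7%) of the open 5′ ends.

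The 391 genes open at both places showed about equal height at each, with the highest region taken at each place. The median fold was 14 at the internal start and 14.1 at the 5′ end. The median log2 difference, internal minus 5′ end, was −0.05 (−0.10 to 0.04). Over 652 genes in the pseudoreplicated list it was −0.0875 (−0.19 to −0.0148), with the whole interval negative. All 464 members of genes with a region at the 5′ end, not only the highest of each gene, had a median fold of 13 (12.3 to 13.8). The internal region was the higher one in 185 genes (47.3%, 42.3 to 52.4%), by over 2-fold in 36, and it was over 2-fold lower in 34. CpG content differed between these sites, with median ratios of 0.503 (0.429 to 0.545) and 0.729 (0.706 to 0.757), and the internal start had the higher ratio in 31.5% of the genes.

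**Figure D4:**
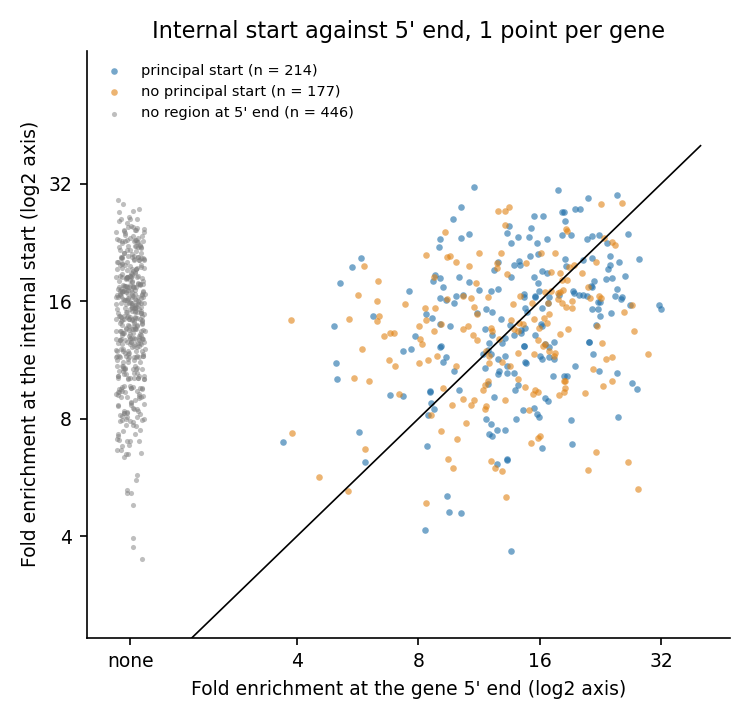
Fold enrichment of the highest member (vertical axis) against that at the 5′ end of the record (horizontal axis), both on log2 axes, 1 point per gene, with the line of equality. The 391 genes open at both places scatter on both sides of the line, and 446 genes with no region at the 5′ end are drawn at the left with random horizontal spread.

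Members lay a median of 22 kb (19.8 to 24.2) from the 5′ end. There were 236 at 5 to 10 kb, 232 at 10 to 20 kb, 260 at 20 to 50 kb, 151 at 50 to 100 kb and 113 beyond 100 kb, with median folds of 14.2, 13.5, 13.5, 12.1 and 11.9. The farthest were 2 members in Pde4d, a phosphodiesterase that degrades cyclic AMP, at 1477 and 1453 kb, with folds of 10.2 and 7.33. They were followed by Celf2, an RNA-binding splicing regulator, at 788 kb (8.3), and Camta1, a transcription activator, at 753 kb (15.7). Across the limit of the rule, members with a start 5 to 6 kb downstream had a median fold of 14 (n = 51), and regions with a start 4 to 5 kb downstream had 11.9 (n = 94). Members with the summit 900 to 1000 bp from the start had 11.8 (n = 21), and regions at 1000 to 1100 bp had 8.66 (n = 30).

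At many members the annotated start codon lay further downstream. Among 910 members whose nearest start had a transcript with an annotated start codon, 440 (48.4%, 45.1 to 51.7%) used a codon downstream of the most upstream one of the gene. The share was 31.5% (27.8 to 35.4%) with a principal start and 78.9% (74.1 to 83.3%) without one. The share over all internal starts, open or not, is not given here. These values therefore describe the members and do not set them apart from closed internal starts. The product had a median length of 92.8% (90.9 to 95.6%) of the longest product over the 337 for which both lengths were annotated. In 42 of the 337 (12.5%, 9.13 to 16.5%) it was under 50% of the longest. A later codon did not always mean a shorter product. In Atf7ip (1306 residues), Pde2a (945) and Fyb (819) a member with a later codon gave the longest product. The most upstream codon was taken over all coding transcripts, also those with an unfinished coding sequence.

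The 12 highest members had folds of 27.6 to 31.4. H2-DMa, which helps load peptides onto MHC class II molecules, led with 31.4 (chr17:34135252-34135884, 16.1 kb inside the record), against 11 at its 5′ end. The next were Ccdc77, with 30.8 against 17.7, Trip4, a transcription coactivator, with 29.9 against 24.9, and Dync2h1, the heavy chain of a dynein of cilia, with 29.4 against 21.1. Chd8, a chromatin remodeller, had 28.4 against 22.7. Ccdc12 had 27.9 against 13.4 at an incomplete start, Slc39a11, a zinc transporter, 27.8 against 10.2, and Slc28a2, a nucleoside transporter, 27.6 against 19.6. Platr25 had 28.5 against 25.6. The lowest members were Stk32c with 2.81, Cytip, a regulator of cell adhesion, with 2.99 and 3.51, and Impact with 3.16.

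Ehbp1, Scp2 and Nfyc, whose sequences are given above, had folds of 29.1, 28.4 and 27.6 and no region at the 5′ end of the record. The same held for Glo1, which detoxifies methylglyoxal, at 27.2, Gnl2 at 27.1, Mctp1 at 26, Pcyt1b, an enzyme of phosphatidylcholine synthesis, at 26, and Aqr, a helicase of the spliceosome, at 26. In Ehbp1 the CpG ratio was 0.738 at the internal start and 0.178 at the 5′ end, in Gnl2 0.685 and 0.173, and in Aqr 0.716 and 0.174. Mctp1 had the reverse, with 0.191 at its open internal start and 0.732 at the 5′ end, 195 kb away, where no region was found. Of the 12 members named by this rule, 11 held a principal start.

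Scp2 is known for making a long enzyme and a short sterol carrier from separate promoters. Its record had 3 places of coding starts. The outermost had no region. The start of the 547-residue principal product, 26.5 kb inside, had a region with a fold of 14.5, and the start of the 143-residue product, 73.6 kb inside, had the fold of 28.4.

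Genes known in mouse or human for alternative promoters were open at an internal start in 10 of the 19 that have one (52.6%, 28.9 to 75.6%), with a median fold of 9.44 over 12 members, against 16.5% of all genes and a median of 13.3 over all members. The lists of genes used here were chosen with results of these data known, so these counts are descriptions. The genes open there were Crem, Dnmt3a, Gnas, Lck, Nr3c1, Prdm1, Runx1, Runx2, Runx3 and Tpm1. The genes not open there were Mitf, Trp73, Trp63, Pparg, Ppargc1a, Esr1, Pax6, Bdnf and Dmd.

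Runx1 and Runx3, DNA-binding partners of Cbfβ in T cells, each have a distal promoter at the 5′ end and a proximal one inside the gene. At Runx1 the distal promoter had a fold of 10.5 and the proximal region (chr16:92697180-92697609, 129 kb inside) 7.81. The proximal start gives 387 residues, of 465 in the longest product. At Runx3 the distal promoter had 26.5 and the proximal region (chr4:135152127-135152718, 31.8 kb inside) 6.19; Runx3 was named after its values were seen. Runx2, a factor known from bone, had 7.33 at its proximal start and none at the distal one.

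Lck, the Src family kinase that starts T cell receptor signalling, has a distal and a proximal promoter as well. The distal start had a fold of 7.35 and the proximal region (chr4:129558255-129558958, 15.2 kb inside) 11.9, with its summit 371 bp upstream of the nearest start. Both have a principal product of 509 residues. At Dnmt3a, a DNA methyltransferase, the region near the 5′ end had 15.6 and the internal region (chr12:3890726-3891724, 85.7 kb inside) 9.5. That start gives 689 of 908 residues, the length of the known short form. The 7 other internal starts of Dnmt3a, from 55 kb on, had no region within 1000 bp.

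At Crem, a factor that responds to cyclic AMP, the known intronic promoter of the short repressor ICER lies far inside the gene. There were 2 members about 56 kb inside, with folds of 14.3 and 7.7, beside 13.6 at the 5′ end. Products of 95 to 125 residues start there, against 357 for the longest. None of the other starts between 10.2 and 38.3 kb was open. Nr3c1, the glucocorticoid receptor, had 11.7 at 28.1 kb, where a CpG ratio of 0.631 was found, 5.26 at 29.5 kb and 12.1 at the 5′ end.

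Prdm1 had a fold of 14.6 at its coding starts, 69.8 kb inside the record, and no coding transcript began at the 5′ end of that record. A region with a fold of 23 had its summit 1.04 kb before the 5′ end, just outside the window used. Gnas, an imprinted gene for a G-protein subunit, had 9.37 at 43.4 kb, and no region at its 5′ end or at the start of the 1133-residue product. Tpm1, a tropomyosin, had 15.6 at the start of a 245-residue product, of 326 in the longest, and none at its 5′ end.

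**Figure D5:**
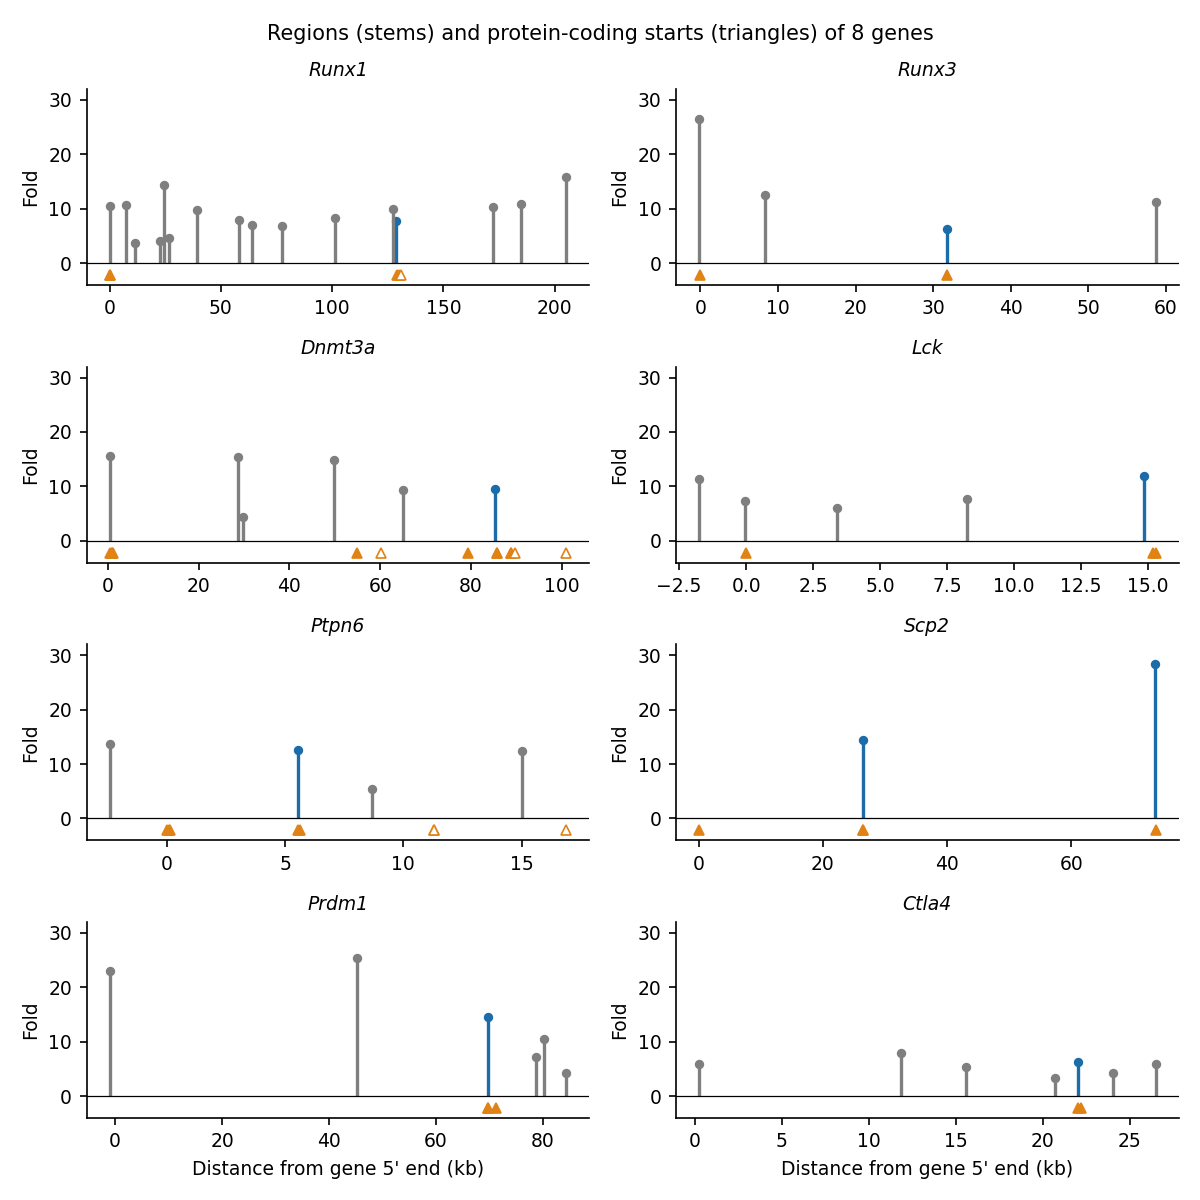
Regions (stems, height is fold enrichment) against distance from the 5′ end of the gene record (kb) in 8 genes; blue stems are members, grey stems other regions, filled triangles complete and open triangles incomplete protein-coding starts. Runx3 has its high region at the 5′ end (26.5 against 6.19), Lck has the higher of the pair inside (11.9 against 7.35), and Scp2 has regions at the 2 internal starts only.

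Transcription factors of T cells were open at an internal start in 17 of the 26 with one (65.4%, 44.3 to 82.8%), with a median fold of 9.35 over 25 members. Elf1 had the highest at 17.9, against 10.7 at its 5′ end. Hif1a had 16.2 at the start of its 836-residue principal product, 6.53 kb inside, and none at the 5′ end, where an 810-residue form begins. Nr4a1 had 14.8 against 8.36 at the 5′ end, with a further member of 5.13. Rora had 12.3 at 636 kb, where the 467-residue principal form begins, and none at the outer start of the 523-residue form. The CpG ratios of these Rora starts were 0.718 and 0.856.

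Stat5b, which acts downstream of interleukin-2, had 10.1 against 5.04. Foxp1, a factor of quiescent T cells, had members of 10.1 and 7.42 near 1 start 427 kb inside and no region at its 5′ end. Tcf12, an E protein, had 9.6 and 9.35 against 9.19. Satb1, a chromatin organiser of T cells, had 3 members of 9.37, 5.25 and 4.81 against 8.57. Named after their values were seen, Ets1 had 9.22 at 59.8 kb with no region at the 5′ end, and Gata3 had 4.6 against 10.2. Factors with an internal start that was not open included Foxp3, Foxo3, Bach2, Tcf3, Zbtb7b, Irf2, Nfkb1 and Smad3. The 6 internal starts of Foxp3, the defining factor of regulatory T cells, lie 5.92 to 12.7 kb inside the record, and none had a summit within 1000 bp.

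Genes of T cell receptor and kinase signalling were open there in 10 of 25 (40%, 21.1 to 61.3%), with a median fold of 10.9. Fyb, the adaptor ADAP, had 19.7 at 46.7 kb and 6.64 at 57 kb, where the principal 819-residue form begins, against 5.87 at its 5′ end. Dgkz, a diacylglycerol kinase that dampens receptor signals, had 14.8 and 10.9 against 11.2. Ptpn6, the phosphatase SHP-1, had 12.6 at 5.56 kb and no region within 1000 bp of its 5′ end. Its inner and outer starts give 595 and 597 residues, and the inner one is known as the promoter used in blood cells. Zap70, a kinase recruited by the receptor, had 10.9 and 5.7 against 13.5. Csk, the kinase that inhibits Lck, had 10.7 with a summit 485 bp from the start, 5.78 at another start and no region at its 5′ end. The members of Stim1, the calcium sensor of the endoplasmic reticulum, and Itpr1, a calcium channel, both with 16.5, lay at incomplete starts.

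Surface receptors were open in 7 of 20 (35%, 15.4 to 59.2%), with the lowest median fold of the lists, 6.81. Cd28, the costimulatory receptor, had 16.1 at its principal start, 29.6 kb inside, and none at the 5′ end. Ctla4, its inhibitory counterpart, had 6.2 at its coding start, 22 kb inside, and 5.9 at the 5′ end of the record, where no coding transcript begins. Cd47, which signals against phagocytosis, had 7.4 against 5.69, and Tnfrsf9, the costimulatory receptor 4-1BB, had 6.81 and 5.24 against 8.43. Cd226 had 12.3 and 4.36 against 16.3. Il6st, the shared gp130 chain, had 6 against 12.4 at the start of a 327-residue product, of 917 in the longest. Il1r2, a decoy receptor for interleukin-1, had 8.64 and no region at its 5′ end.

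Chromatin regulators were open in 15 of 45 (33.3%, 20 to 49%), with the highest median fold of the lists, 15.7. Dnmt1, the maintenance DNA methyltransferase, had 18.6 at its principal start of 1620 residues, 6.91 kb inside, and none at the 5′ end, where a 1501-residue form begins. The CpG ratios were 0.593 and 0.0588. Oocytes are known to use another first exon of this gene. Kdm2b, a histone demethylase, had 15.4 at the start of a 776-residue product, of 1309 in the longest, against 8.82 at its 5′ end. Hdac4 had 16.6, Kdm4c 16.4 and Kat6b 16.4 at starts of their principal products, with no region at the 5′ end. Kdm2a had 18.3 at a start that is not principal, also with none. Chd9 had 16.8 and 14.7 against 17.7, and Hdac5 16 against 19.2.

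Among regulators of the cytoskeleton, Dock10, known from lymphocytes, had 18.5 against 8.73 at the start of a 2175-residue form, of 2187 in the longest. Arhgef3 had 12.2 and 10.6 at inner starts and none at the 5′ end. Arhgef7 had 14.3 at its principal start and none at the 5′ end. Akap13, an anchor protein of protein kinase A, had 4 members of 6.08 to 9.33 against 20.7 at its 5′ end, and 2 of them lay at incomplete starts. Phosphodiesterases of cyclic nucleotides were open in 4 of 14 (28.6%, 8.39 to 58.1%). Beside Pde4d, these were Pde11a with 14.4 at an incomplete start, Pde2a with 12.7, and Pde4b with 8.29 and 5.24, none with a region at the 5′ end. Of 23 listed neuronal genes with an internal start, among them Cacna1c and Rbfox1, 0 were open there, which by the exact binomial bound allows a share of up to 14.8%. In the pseudoreplicated list 2 of the 23 (8.7%) were open. The list does not cover all such genes. Kcnip2, Dlg4 and Dlgap4, relatives of the listed Kcnip1, Dlg2 and Dlgap1, had members with folds of 16.5, 16.4 and 12.5.

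Plec, a cytoskeletal linker, and Atxn7l1 had the most members, with 5 each. Those of Plec had folds of 4.01 to 9.53 and lay 24.3 to 36.9 kb inside, with none at the 5′ end of the record. Those of Atxn7l1 had 7.27 to 15.5 at 155 to 168 kb, against 11 at its 5′ end. Zmynd8, Akap13, Atf7ip and Wipf1 had 4 each. Wipf1, a partner of the actin regulator WASP, had 11.5, 9.54, 7.35 and 6.26 and no region at its 5′ end. Neighbouring members can share a start, as 2 of the Zmynd8 members did at 14.3 kb, so members of 1 gene are not independent.

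The labelled cell type was checked against fixed markers. All 7 markers of regulatory T and T cells (Foxp3, Il2ra, Ctla4, Ikzf2, Cd3e, Cd3d and Cd4) had 1 or more regions in the gene or within 5 kb. Of 3 B cell markers only Cd79a had any, with 2, and of 5 myeloid and dendritic markers only Flt3, with 1. Cd8a, Ncr1, Klrd1, Gata1 and Hbb-bs had none. The part of other cells in the values above was not tested. In the authors' ranked list the −log10 p of the 2 sets of reads ranked against each other lay within 2-fold for 99.4% of members, 99.1% of regions at gene 5′ ends and 98.5% of intronic regions. The thresholded list keeps peaks that agree between these sets, so the shares are a description of that choice.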

How the data were processed

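ATAC-seq was performed by the authors on 2 technical replicates of 1 biological replicate. The deposited peak lists on mm10 serve both, and no value was labelled by library. An aligner, peak caller or IDR threshold is not given in the sources used here, nor are read counts, so depth is unknown and the intervals cover counting error only. The fold enrichment of each peak (a linear ratio), its −log10 p, its whole-number score and its summit offset are the authors' own deposited values. Column meanings were read off the values, and no source names the fold's background.

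From these, peaks were merged and classed with GENCODE M21 and the GRCm38.p6 sequence. Python 3.11.15, pandas 2.3.3, numpy 2.4.6, scipy 1.17.1, pysam 0.24.0 and matplotlib 3.10.9 were used. A site counted as open with a summit within 1000 bp. Shares have 95% exact binomial (Clopper-Pearson) intervals and medians exact order-statistic intervals. No p-value was computed, since regions are not replicates. The scripts were tested on simulated data. The members, lists and motifs were chosen with earlier results of these data known. Genes were named by rule: the 12 highest members, the 12 highest with no region at the gene 5′ end and a complete start, up to 10 per gene list by fold, the 4 lowest, the 4 farthest, and genes with 3 or more members. Runx3, Ets1, Gata3 and the lower further members of Nr4a1, Nr3c1, Foxp1, Tcf12, Zap70, Csk and Scp2 fall outside this rule and were named after their values were seen. Printed sequences are 150 bases without annotated exon, for up to 5 members of the second rule and 5 of the transcription factor list. Alternatives covered the list, windows, distances, transcript sets, merging and summit choice. A few items of the lists are not reported here.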

Additional observations from a re-analysis of the deposited data

How the results depend on the processing

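Of 111 recomputed values of the main results, 64 stayed within the interval of the main value or, for the count, within 1.5 times. The other 47 moved further. Only the log2 difference can take either sign, and it was negative in each setting. In the pseudoreplicated list there were 1514 members (2.86% of regions), with 22.7% of internal starts and 21.8% of genes open, a median fold of 9.6, 58.8% of member genes open at the 5′ end, a CpG ratio of 0.5 and 88.9% complete starts. In the upper 50% of regions by fold the values were 505 members, 10.1% of starts, 9.65% of genes, a fold of 17.1, 29% open at the 5′ end and 44.8% with a later start codon. With peaks counted singly there were 2313 members (3.98%), a fold of 6.9 and a CpG ratio of 0.615. A window of 500 bp gave 2.76% of regions, 14.6% of starts, 14.5% of genes, a fold of 14, 38.9% open at the 5′ end and 94.2% complete. A window of 2000 bp gave 4.27%, 20.6%, 19%, 12.5, 54.5% and 87.7%, with a CpG ratio of 0.499. Starts over 2 kb downstream gave 4.37% of regions, a fold of 12.7 and 43.8% with a later codon, and starts over 10 kb gave 2.59%, a CpG ratio of 0.532 and 52.3%. Complete transcripts alone gave 3.12% of regions, 23.7% of starts, 22.2% of genes and, by construction, 100% complete. Basic transcripts gave 2.73%, 23.2%, 22.5% and 100%, with a CpG ratio of 0.63. The median CpG ratio at the members' starts was 0.575, and 0.63 in 250 bp on either side. Causes of the other changes were not tested. The gene list shares stayed within their intervals in 16 of 16 cases and motif shares in 5 of 18.

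No paired analysis was possible because there was 1 group and the lists pool the libraries, which also left no replicate to leave out. Depth, spread between mice and transcription were not measured, and 1 value per region cannot separate weak from variable promoters.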

Other observations

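A noncoding gene also had a start within 1000 bp of the summit at 89 members (8.97%, 7.27 to 10.9%). Their median fold was 13.8 (12.5 to 14.9), against 13.3 (12.7 to 13.7) for the other 903, and their median CpG ratio 0.716 (0.669 to 0.784) against 0.537 (0.505 to 0.572). The summit lay in an annotated exon at 55.1% (44.1 to 65.6%) of these 89 and at 30.2% (27.3 to 33.3%) of the others.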
